A study of Mus musculus with 8 samples.

Results

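Expression of the dystrophin-glycoprotein complex was examined in left ventricles of Mst1-TG and WT mice. The complex was represented by 8 genes taken by symbol from a table of 55385 genes: Dmd, Utrn, Dag1, Sgca, Sgcb, Sgcd, Sspn and Dtna. Each symbol had a single row, and all 8 were among the 15314 genes that passed the filter on low counts, none of them near it. There were 8 RNA-seq libraries from male C57BL6 mice, 4 Mst1-TG and 4 WT. Mst1-TG mice carry an Mst1 transgene under the alpha-myosin heavy chain promoter, which is active in cardiomyocytes, and develop dilated cardiomyopathy, in which the ventricle enlarges and contracts poorly. WT mice were littermates without the transgene. A Gal-3 deletion that the growth protocol mentions is not in the genotype labels of these 8 samples. The age is 3 weeks in the design text and 3 months in the RNA extraction protocol, and the growth protocol names mice of 3 weeks and 5.5 months.

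The complex ties the cytoskeleton of a muscle fibre to the surrounding basement membrane. Dystrophin binds actin inside the cell and dystroglycan at the membrane, dystroglycan binds laminin outside it, and the sarcoglycans and sarcospan hold this assembly together. Dystrobrevin and the syntrophins attach to dystrophin on the inner face and recruit signalling proteins. In humans, loss of dystrophin or of certain sarcoglycans causes muscular dystrophy, which can come with cardiomyopathy.

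Between the groups the complex did not move in a common direction with the main scaling of libraries (TMM, described below). Dmd was the only member that rose in Mst1-TG hearts, 1.65-fold, while Sgca fell to 0.721 of the WT level and Dtna to 0.849. Utrn, Dag1, Sgcb, Sgcd and Sspn did not pass the test. Of all genes tested, 42.3% passed at an edgeR adjusted p below 0.05, 21.2% as higher and 21.1% as lower in Mst1-TG, so that 3 of 8 members is a share near that of all genes. For 2 members, Dmd and Sgca, all Mst1-TG values lay on one side of all WT values, as they did for 40.3% of tested genes (20.2% of tested genes with Mst1-TG above, as for Dmd). The median log2 fold change (Mst1-TG over WT) was 0.10 for the 8 members and 0.01 for all genes. These calls depend on the scaling. With counts divided by library totals alone, edgeR called 6 members higher and 0 lower, and 7409 and 1592 of all 15314 genes. The call of Dtna was also lost when some single libraries were left out.

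The libraries held 21193536 to 23809256 estimated counts. Stk4, the mouse gene for the Mst1 kinase, had 1449 to 1747 CPM (counts scaled to a common library size) in Mst1-TG libraries and 25.2 to 29.6 CPM in WT libraries. Mitochondrially encoded genes took 13.6% ± 0.676 of counts in Mst1-TG and 22.9% ± 1.11 in WT (SD, n = 4 each). CPM values here were scaled by TMM factors, which centre the bulk of genes. When counts were divided by library totals alone, the median log2 fold change became 0.29, with 7409 genes passing as higher in Mst1-TG and 1592 as lower (3244 and 3238 with TMM). Markers of cardiomyocytes fell in 6 of 10 cases and none rose (at an unadjusted p below 0.05, 7 were lower and 0 higher, and DESeq2 called 7 lower and 0 higher). Their summed level was 39100 to 50500 CPM in Mst1-TG and 54950 to 65810 CPM in WT. Fibroblast markers rose in 9 of 10 cases, with a summed 6440 to 8926 CPM in Mst1-TG and 2819 to 3740 CPM in WT. Of smooth muscle and pericyte markers 1 rose and 3 fell of 8, of endothelial markers 3 fell of 8, and of leukocyte markers 7 of 7 did not pass in edgeR (1 lower at an unadjusted p below 0.05, and 0 in DESeq2), with a summed 150.3 to 210.2 CPM in Mst1-TG and 148.5 to 188.8 CPM in WT. With library totals only, the counts in edgeR were 1 higher and 4 lower for cardiomyocyte, 9 and 0 for fibroblast, 4 and 1 for smooth muscle and pericyte, 0 and 0 for endothelial, and 4 and 0 for leukocyte markers; none of the fibroblast, endothelial or leukocyte markers was lower even at an unadjusted p below 0.05. In whole ventricle, fewer cells of a type and less RNA per cell cannot be told apart, and the part of these shifts in the results below was not tested. Of 8 skeletal muscle markers, named here after their values were seen, 3 were tested. Tnnt3 rose (2.80 ± 0.755 CPM in Mst1-TG and 0.404 ± 0.206 CPM in WT), Ckm, which heart muscle also expresses, fell (760 ± 104 CPM in Mst1-TG and 2220 ± 204 CPM in WT; SD, n = 4 each), and Mylpf did not pass. Of the untested ones, Myh1 had 3 to 9 counts per Mst1-TG library and 0 to 2 per WT library, Myh2 had 0 to 4 in both groups, Myod1 had 1 count in all, and Myh4 and Pax7 were at 0 in all 8 libraries.

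**Figure D1:**
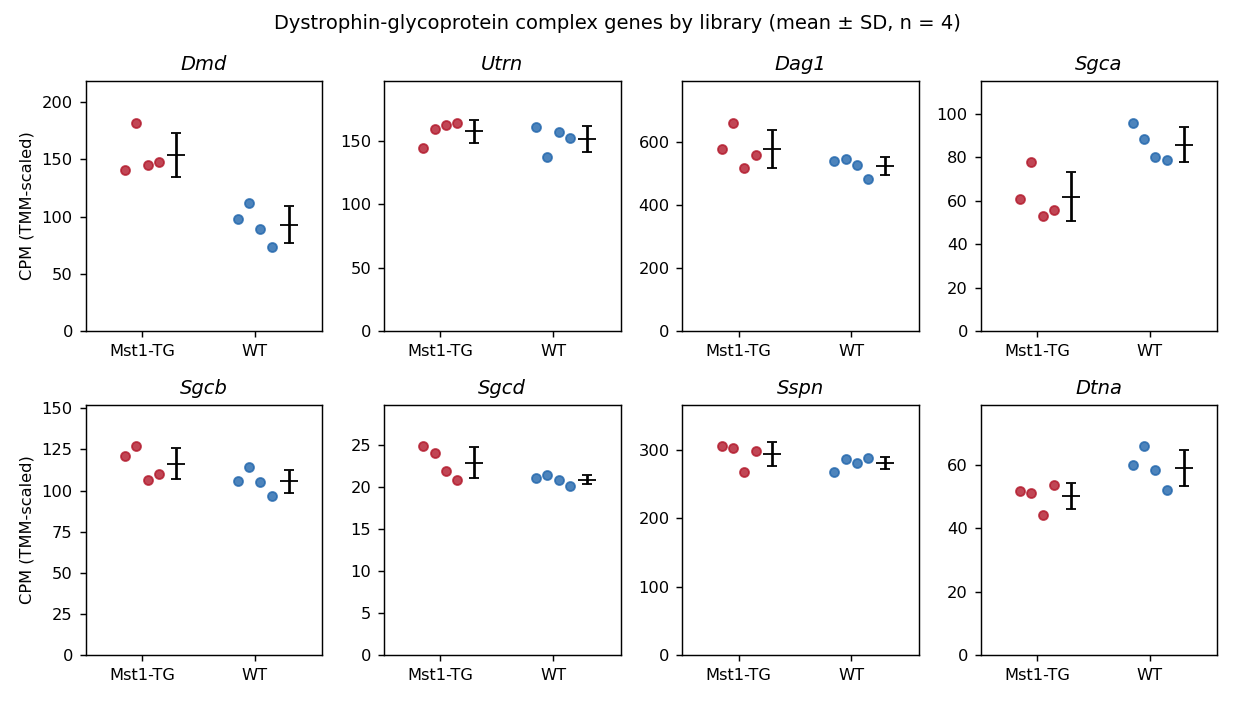
Normalised level (CPM, TMM-scaled, axes from 0) of each of the 8 members in 4 Mst1-TG and 4 WT libraries. Each point is a library, and bars give the mean ± SD. The Mst1-TG points lie above all WT points for Dmd (141 to 182 against 73.6 to 112 CPM) and below them for Sgca (52.8 to 78.0 against 78.9 to 95.8 CPM), and overlap them for the other 6 genes.

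Dmd encodes dystrophin, the long rod-shaped protein that anchors the complex to actin. The gene lies on the forward strand of chromosome X, from 82948870 to 85206141, in the GENCODE M21 annotation of GRCm38. Full-length dystrophin is read from upstream start sites, and shorter products from sites inside the gene. In GENCODE M21 a coding transcript of 14.9 kb starts at 82948903, and coding transcripts of 4.44 and 1.86 kb start at 85048413. Gene-level counts add all of them. The 250 bases before 2 start sites in RefSeq (GRCm38.p6, forward strand) are shown because the rise of Dmd cannot be assigned to either. Capitals mark the CArG box, which serum response factor can bind, in the upstream window, and GC boxes (GGGCGG or its complement) in the internal window, where 2 of the 3 overlap.

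Dmd upstream start, chrX:82948620-82948869: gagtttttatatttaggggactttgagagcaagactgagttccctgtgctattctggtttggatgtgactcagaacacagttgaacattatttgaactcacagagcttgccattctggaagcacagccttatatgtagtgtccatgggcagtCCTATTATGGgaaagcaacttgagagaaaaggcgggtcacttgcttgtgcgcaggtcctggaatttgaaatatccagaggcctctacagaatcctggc

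Dmd internal start, chrX:85048045-85048294: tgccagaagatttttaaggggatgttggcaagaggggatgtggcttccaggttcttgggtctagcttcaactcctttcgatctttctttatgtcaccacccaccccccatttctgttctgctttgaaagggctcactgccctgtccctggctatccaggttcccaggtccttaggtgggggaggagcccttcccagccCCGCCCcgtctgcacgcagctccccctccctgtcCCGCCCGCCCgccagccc

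Counting back from the base before the start, the CArG box spans bases 98 to 89. On either strand, 1.47% of 32851 RefSeq windows of this length hold a CArG box. E-boxes (CANNTG) stand at bases 173 to 168 and 61 to 56 of the upstream window, and 66.2% of all windows hold at least 1. GC boxes occur in 32.7% of all windows. The MCAT element (CATTCC), which TEAD factors bind, is in neither Dmd window and in 12.6% of all windows. These matches describe letters only, and a missing match says nothing about a factor.

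In Mst1-TG hearts Dmd had 141, 182, 145 and 148 CPM in libraries 1 to 4. WT libraries had 97.8, 112, 89.1 and 73.6 CPM. Every Mst1-TG library was above every WT library, with Mst1-TG 2 the highest and WT 4 the lowest. The means were 154 ± 18.9 CPM in Mst1-TG and 93.0 ± 15.9 CPM in WT (SD, n = 4 each). The log2 fold change was 0.72 ± 0.12 (SE), with an edgeR adjusted p of 5.6e-04. Leaving out each library in turn gave values of 0.63 to 0.82, all past the threshold. Tested against a minimum 1.5-fold change, Dmd did not pass (edgeR adjusted p = 0.282). With library totals only it rose by 1.01. Among the 344 tested genes whose longest coding transcript is at least 10 kb, as that of Dmd is, the median log2 fold change was 0.07, and 28.5% were called higher.

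Utrn encodes utrophin, a relative of dystrophin that can bind the same partners. It occupies the reverse strand of chromosome 10 from 12382188 to 12869365. Its level was 144, 159, 163 and 164 CPM in Mst1-TG libraries 1 to 4, and 161, 138, 157 and 152 CPM in WT libraries 1 to 4. The groups overlapped, and the means of 158 ± 9.09 CPM in Mst1-TG and 152 ± 10.1 CPM in WT (SD, n = 4 each) differed by less than their spread. The fold change was 1.04, with an interval of 2 SE on either side from 0.944 to 1.14 (edgeR adjusted p = 0.56). It passed only with library totals as the scaling (log2 fold change 0.34), where it lay 0.05 above the median gene.

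The ratio of Utrn to Dmd counts within a library, which does not depend on how libraries are scaled, restates the fold changes of both genes (0.06 for Utrn and 0.72 for Dmd) and is no separate observation. There were 1.03, 0.877, 1.12 and 1.11 Utrn counts per Dmd count in Mst1-TG libraries 1 to 4. WT libraries had 1.64, 1.23, 1.76 and 2.06. The lowest WT ratio was above the highest Mst1-TG ratio. The mean ratio was 1.03 ± 0.114 in Mst1-TG and 1.68 ± 0.344 in WT (SD, n = 4 each), and the mean log2 ratio differed by -0.68 (exact permutation test over 70 splits, two-sided p = 0.0286, which no split of 4 and 4 libraries can undercut). Without any one Mst1-TG library the p was 0.0571, and without any one WT library it was 0.0286 (exact permutation test, two-sided). The groups did not overlap in any of these cases. Of the 7 ratios to Dmd, only that of Utrn was tested. Counts of both genes rise with transcript length, so the ratio compares libraries and is not a ratio of molecules.

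The ratios of the other 6 members to Dmd all carry the rise of Dmd itself (0.72 on the log2 scale), so that a member with little change of its own is lower relative to Dmd in Mst1-TG, and they were not tested. The difference in mean log2 ratio (Mst1-TG minus WT) was -1.22 for Sgca and -0.97 for Dtna. For Dag1, Sgcb, Sgcd and Sspn it lay between -0.59 and -0.67.

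**Figure D2:**
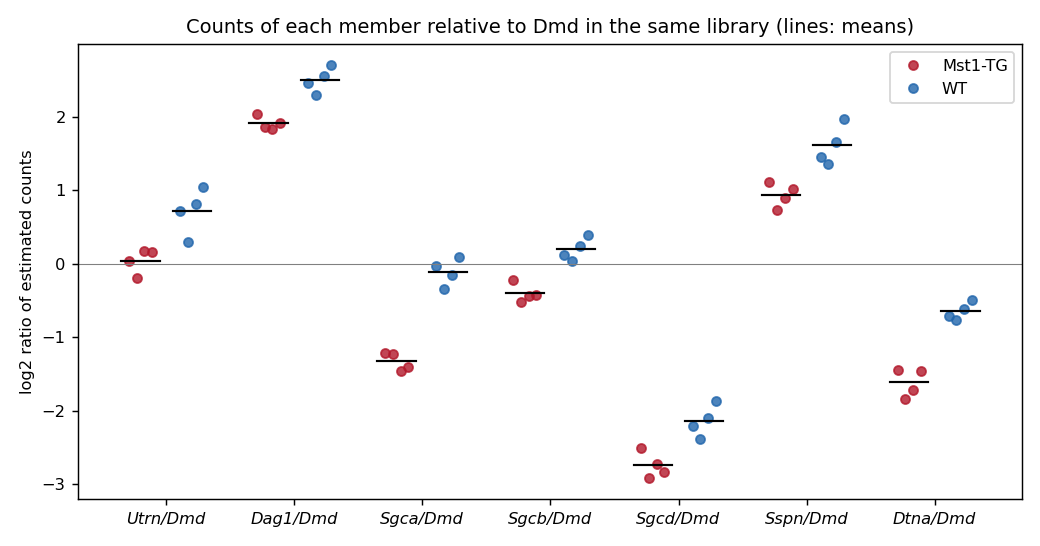
Log2 ratio of estimated counts of each member to those of Dmd in the same library, for 4 Mst1-TG and 4 WT libraries. Points are libraries and lines are group means. In all 7 pairs, which share Dmd and its rise, the Mst1-TG points lie below the WT points, with the widest gap for Sgca (-1.22) and a gap of -0.68 for Utrn.

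Sgca encodes alpha-sarcoglycan, the sarcoglycan largely restricted to striated muscle. It lies on the reverse strand of chromosome 11 from 94962791 to 94976327. The RefSeq window (GRCm38.p6, reverse strand) before its start is shown as that of the member that fell furthest, with its only E-box (CANNTG, bases 86 to 81 before the start) in capitals. It holds no CArG box, GC box or MCAT element.

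Sgca start, chr11:94976328-94976577: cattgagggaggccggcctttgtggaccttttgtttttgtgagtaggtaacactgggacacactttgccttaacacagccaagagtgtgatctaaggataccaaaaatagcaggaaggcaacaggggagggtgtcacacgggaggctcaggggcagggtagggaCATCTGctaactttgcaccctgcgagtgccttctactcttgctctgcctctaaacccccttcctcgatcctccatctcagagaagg

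Sgca had 60.8, 78.0, 52.8 and 55.7 CPM in Mst1-TG libraries 1 to 4, against 95.8, 88.2, 80.1 and 78.9 CPM in WT libraries 1 to 4. The groups did not overlap, although Mst1-TG 2 came close to the lowest WT library. Means were 61.9 ± 11.2 CPM in Mst1-TG and 85.8 ± 7.87 CPM in WT (SD, n = 4 each). The log2 fold change was -0.47 ± 0.11 (SE, edgeR adjusted p = 0.0058). Without any single library it ran from -0.60 to -0.40 and still passed. With library totals only it was -0.19 and did not pass (edgeR adjusted p = 0.136). A change of scaling shifts all genes by nearly the same amount. The distance of Sgca below the median gene, -0.48 under both, was thus fixed in advance and lends the fall no support.

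The remaining sarcoglycans among the members did not pass. Sgcb (beta-sarcoglycan, chromosome 5, 73632749 to 73647790, reverse strand) had 121, 127, 107 and 110 CPM in Mst1-TG libraries 1 to 4, and 106, 115, 105 and 97.0 CPM in WT libraries 1 to 4. Its fold change of 1.10 had a 2 SE interval from 0.995 to 1.22 (edgeR adjusted p = 0.148). Sgcd, which encodes delta-sarcoglycan, lies on chromosome 11 from 46896253 to 47988969 on the reverse strand and was the member with fewest counts. Mst1-TG libraries 1 to 4 held 24.8, 24.1, 21.9 and 20.8 CPM of Sgcd, and WT libraries held 21.1, 21.4, 20.9 and 20.1 CPM. The fold change was 1.10 with an interval from 0.986 to 1.22 (edgeR adjusted p = 0.185). Both genes overlapped between the groups.

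Dag1 encodes the precursor that is cleaved into alpha- and beta-dystroglycan, the laminin receptor at the core of the complex. It lies on chromosome 9 from 108204634 to 108263958 on the reverse strand. Its level was 576, 660, 516 and 558 CPM in Mst1-TG libraries 1 to 4, and 539, 546, 525 and 481 CPM in WT libraries 1 to 4. The lowest Mst1-TG library lay within the WT range and 3 of 4 lay above it. Means of 578 ± 60.5 CPM in Mst1-TG and 523 ± 29.2 CPM in WT (SD, n = 4 each) gave a fold change of 1.10 (2 SE interval 0.984 to 1.24, edgeR adjusted p = 0.191). Sspn encodes sarcospan, a small membrane protein related to tetraspanins (chromosome 6, 145931641 to 145965223, forward strand). It had 305, 303, 268 and 299 CPM in Mst1-TG libraries 1 to 4, against 269, 287, 280 and 288 CPM in WT libraries 1 to 4. Mst1-TG 3 and WT 1 were the low libraries of their groups, and the fold change of 1.05 (edgeR adjusted p = 0.462) did not pass.

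Dtna encodes alpha-dystrobrevin, which binds dystrophin and the syntrophins. Mst1-TG libraries 1 to 4 had 51.8, 51.0, 44.2 and 53.7 CPM, and WT libraries 1 to 4 had 59.9, 65.9, 58.4 and 52.2 CPM. The groups overlapped, since WT 4 lay below Mst1-TG 4. The mean was 50.2 ± 4.14 CPM in Mst1-TG and 59.1 ± 5.63 CPM in WT (SD, n = 4 each), and the log2 fold change of -0.24 ± 0.08 (SE) passed narrowly (edgeR adjusted p = 0.033). It no longer passed without Mst1-TG 3 (-0.18), WT 1 (-0.23), WT 2 (-0.18) or WT 3 (-0.25), with edgeR adjusted p of 0.0975, 0.0665, 0.1 and 0.0588 in that order. With library totals only the value turned to 0.05. Its distance below the median gene, -0.24 under both scalings, cannot change with the scaling and lends the fall no support.

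**Figure D3:**
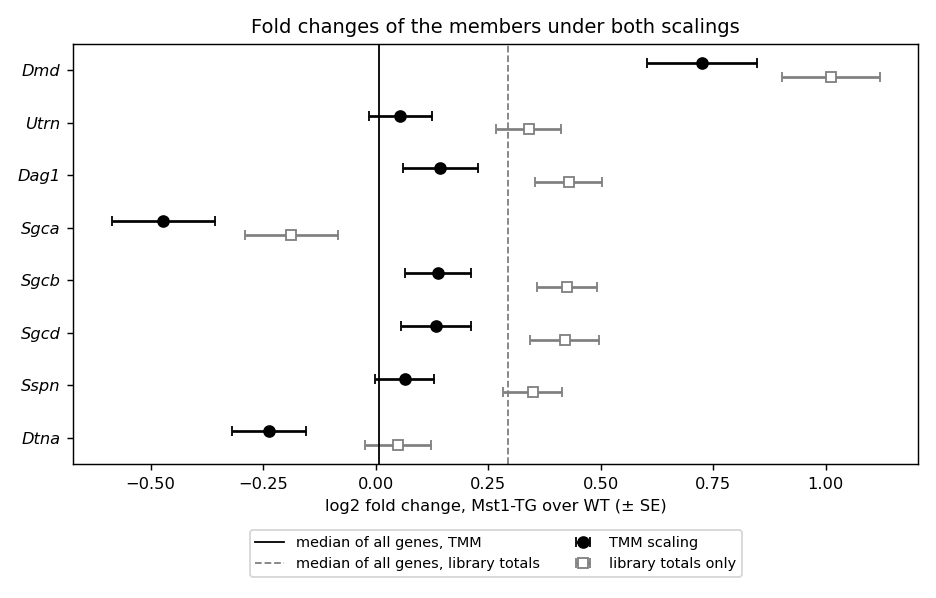
Log2 fold change (Mst1-TG over WT, ± SE, n = 4 each) of each member with TMM scaling (filled circles) and with library totals only (open squares). Vertical lines give the median of all genes under each, 0.01 and 0.29. All 8 genes move with the median, because a change of scaling shifts all genes by nearly the same amount. Distances to the median are therefore alike under both by construction: Dmd lies right of it (0.72 above) and Sgca and Dtna left of it (-0.48 and -0.24).

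Levels of different genes were compared per kilobase of the longest coding transcript in GENCODE M21. In Mst1-TG hearts Dag1 was highest with 102 ± 10.7 CPM per kb, followed by Sspn (65.1 ± 3.85), Sgca (35.9 ± 6.52) and Sgcb (30.7 ± 2.49). Utrn (12.7 ± 0.734), Dmd (10.3 ± 1.27), Sgcd (9.35 ± 0.765) and Dtna (7.97 ± 0.657) came last. In WT hearts the first 5 places were the same, with Dag1 at 92.3 ± 5.16, Sspn at 62.3 ± 1.97, Sgca at 49.7 ± 4.57, Sgcb at 27.9 ± 1.90 and Utrn at 12.3 ± 0.818 CPM per kb. Dtna (9.39 ± 0.894), Sgcd (8.52 ± 0.226) and Dmd (6.24 ± 1.07) followed in WT (SD, n = 4 for each value). Sgca and Sgcb overlapped in Mst1-TG libraries (30.6 to 45.2 and 28.2 to 33.5) and not in WT libraries (45.7 to 55.6 and 25.6 to 30.3). Utrn and Dmd also overlapped in Mst1-TG libraries, as did Dmd and Sgcd, and Sgcd and Dtna. In WT, Dtna and Sgcd overlapped. The order depends on the length used, since with the median coding transcript Dmd had 34.6 CPM per kb in Mst1-TG and 21.0 in WT, above Sgcb (30.7), Dtna (18.4) and Sgcd (11.3) in Mst1-TG, and below Dtna (21.7) but above Sgcd (10.3) in WT.

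Partners of the complex outside the 8 members rose more often than they fell. Of 16 such genes 12 were tested, of which 6 rose and 2 fell with TMM scaling, and 7 rose and 0 fell in edgeR with library totals only (1 lower at an unadjusted p below 0.05, and 2 in DESeq2 with its own size factors), with a median log2 fold change of 0.21. Of all 15314 genes tested, 21.2% rose and 21.1% fell with TMM scaling, and 7409 rose and 1592 fell with library totals only. Among the syntrophins, adaptors that bind dystrophin and dystrobrevin, Sntb1 and Sntb2 rose. Sntb2 had 93.4 ± 6.02 CPM in Mst1-TG and 55.4 ± 1.21 CPM in WT (SD, n = 4 each), a log2 difference of 0.75 ± 0.06 (SE; adjusted p = 5.9e-07 in edgeR). Sntb1 had 42.0 ± 3.05 CPM in Mst1-TG and 25.8 ± 2.28 CPM in WT (0.71 ± 0.08, edgeR adjusted p = 1.1e-05). Sntg2 was called higher at 0.649 to 1.18 CPM in Mst1-TG libraries and 0.0472 to 0.618 CPM in WT libraries (1.28 ± 0.46), but not without Mst1-TG 2, 3 or 4 or WT 1, 2 or 4 (0.90 to 1.37, edgeR adjusted p 0.0616 to 0.0962).

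Of the sarcoglycans outside the members, Sgce, which stands in for alpha-sarcoglycan in smooth muscle and other tissues, rose to 34.6 ± 0.922 CPM in Mst1-TG, against 27.0 ± 3.43 CPM in WT (SD, n = 4 each; 0.36 ± 0.09 SE, edgeR adjusted p = 0.0045). Drp2, dystrophin-related protein 2, rose by 1.35 ± 0.32 at a low level (1.58 ± 0.238 CPM in Mst1-TG and 0.622 ± 0.260 CPM in WT). Map1b, a microtubule-associated protein, rose by 0.95 ± 0.09. Cav3, muscle caveolin, fell to 65.6 ± 6.82 CPM in Mst1-TG, against 89.3 ± 0.337 CPM in WT (-0.45 ± 0.07, edgeR adjusted p = 2.4e-04), and did not pass with library totals only (-0.16). Grb2, an adaptor that binds beta-dystroglycan, passed as lower (-0.17 ± 0.06) but turned to 0.12 with library totals only, and lost its call without Mst1-TG 3 or 4 or WT 2 or 3 (edgeR adjusted p 0.0631 to 0.0755) and with no filter on low counts (0.122). Dtnb (0.07 ± 0.20) and the potassium channel Kcnj12 (-0.05 ± 0.12) did not pass. The neuronal nitric oxide synthase Nos1, which syntrophin can hold at the membrane, had 2 to 10 counts per Mst1-TG library and 2 to 6 per WT library and was not tested, nor were Sgcz, Sntg1 and Dytn.

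Of 17 tested genes with a part in the glycosylation of alpha-dystroglycan, 11 did not pass, as did 8832 of all 15314 genes. There were 2 that rose and 4 that fell with TMM scaling, whereas 9 rose and 0 fell in edgeR with library totals only (0 lower at an unadjusted p below 0.05, and 4 in DESeq2 with its own size factors), and the median log2 fold change was -0.05. Among those that fell were the dolichol kinase Dolk (-0.40 ± 0.08, edgeR adjusted p = 0.0011) and the glycosyltransferase Pomgnt2 (-0.39 ± 0.14, edgeR adjusted p = 0.033). With library totals only neither passed (both -0.11). Pomgnt2 also lost its call without Mst1-TG 1, 3 or 4 or WT 3 or 4 (-0.42 to -0.30, edgeR adjusted p 0.051 to 0.102).

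Genes for the matrix that dystroglycan binds rose in 9 of 13 tested cases and fell in 1 with TMM scaling (12 and 1 with library totals only), with a median log2 fold change of 0.44. Across all tested genes, 21.2% rose and 21.1% fell with TMM scaling (7409 and 1592 of 15314 with library totals only). Lama2, the laminin alpha chain of muscle basement membrane, had 410 ± 13.8 CPM in Mst1-TG and 217 ± 6.17 CPM in WT (SD, n = 4 each; 0.92 ± 0.06 SE, edgeR adjusted p = 1.2e-07). The laminin chains Lamc1 and Lamb1 rose by 0.75 ± 0.07 and 0.64 ± 0.09. Bgn, biglycan, which binds dystroglycan and sarcoglycans, had 1061 ± 113 CPM in Mst1-TG and 269.7 ± 37.6 CPM in WT (1.98 ± 0.11). Egflam, pikachurin, a dystroglycan ligand of the retina, fell by 1.06 on the log2 scale. Fibroblast markers rose in the same libraries (9 of 10, summed levels above), and their part in these values was not tested.

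The integrin and vinculin costamere is a parallel link between the sarcomere and the matrix. The list made for it is broader and also holds keratin, other intermediate filament and ankyrin genes. Of its 24 tested genes, 13 rose and 4 fell with TMM scaling (17 and 2 with library totals only), with a median of 0.25. The shares of all tested genes were 21.2% higher and 21.1% lower with TMM scaling (7409 and 1592 of 15314 genes with library totals only). Flnc, the actin crosslinker filamin C that also binds delta-sarcoglycan, had 1365 ± 230.8 CPM in Mst1-TG and 279 ± 33.1 CPM in WT (SD, n = 4 each; 2.29 ± 0.13 SE, edgeR adjusted p = 4.7e-08). The intermediate filament genes Des (1.44 ± 0.09), Synm (1.22 ± 0.09) and Krt18 (3.59 ± 0.22) rose. Krt18 was at a low level, with 9.42 ± 1.94 CPM in Mst1-TG and 0.781 ± 0.218 CPM in WT (SD). Among integrins, Itga5 rose by 1.14 ± 0.09, the laminin receptor subunit Itga7 by 0.44 ± 0.09 and its partner Itgb1 by 0.38 ± 0.07. Vcl, vinculin, was at 196 ± 16.7 CPM in Mst1-TG and 190 ± 20.7 CPM in WT and did not pass (0.04 ± 0.09, edgeR adjusted p = 0.755). The genes named here were taken by smallest p or by name, and none of the 4 that fell is among them.

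Genes for repair of the cell membrane rose in 9 of 18 cases and fell in 4 with TMM scaling (13 and 2 with library totals only), with a median of 0.17. For comparison, 21.2% of all tested genes rose and 21.1% fell with TMM scaling (7409 and 1592 of 15314 with library totals only). The annexins Anxa1, Anxa2 and Anxa5, which bind membranes in a calcium-dependent way, rose by 1.02 ± 0.10, 0.82 ± 0.10 and 0.65 ± 0.09. Syt7, a calcium sensor of membrane fusion, fell to 25.2 ± 3.07 CPM in Mst1-TG, against 60.9 ± 4.93 CPM in WT (SD, n = 4 each; -1.27 ± 0.09 SE, edgeR adjusted p = 2.2e-07), and the membrane-trafficking ATPase Ehd1 fell by 0.54. Dysf, dysferlin, had 125 ± 7.84 CPM in Mst1-TG and 120 ± 9.90 CPM in WT and did not pass (edgeR adjusted p = 0.54).

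**Figure D4:**
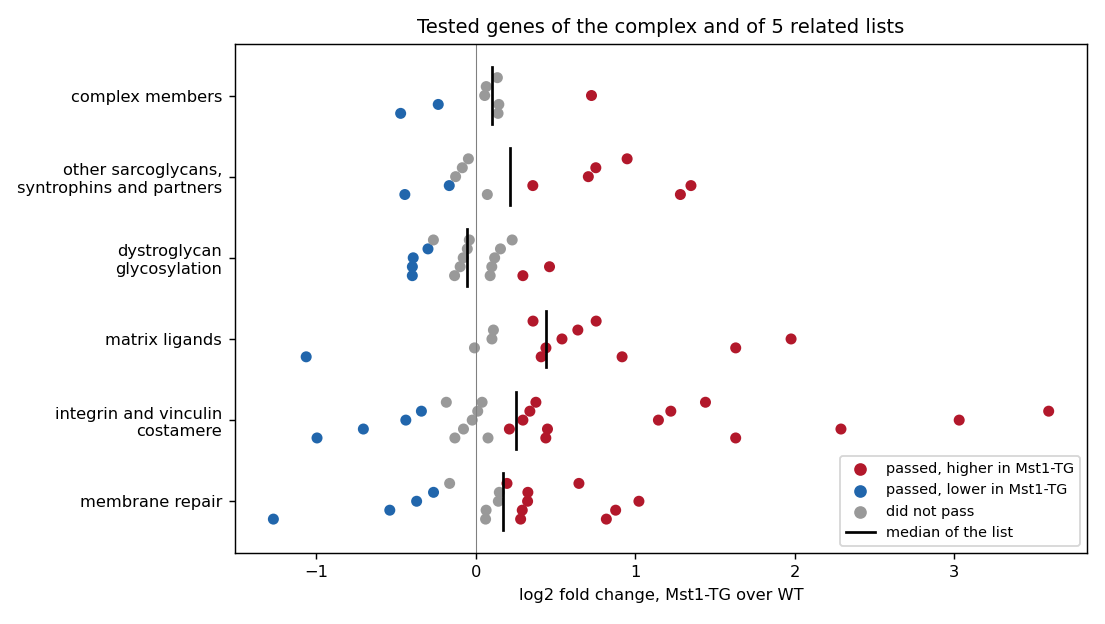
Log2 fold change (Mst1-TG over WT, TMM scaling) of the tested genes of the complex and of 5 related lists. Each point is a gene, coloured by whether it passed at an edgeR adjusted p below 0.05, and bars give list medians. The medians run from -0.05 for dystroglycan glycosylation to 0.44 for matrix ligands, with 0.10 for the members.

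The genes whose log2 CPM over the 8 libraries most resembled that of each member were sought among 11829 genes, as a description in which the groups and the scaling are shared. The highest r among so many genes over 8 libraries is large by selection alone, and no r was tested. Closest to Dmd were Ypel4 (Pearson r = 0.989), the cytoskeletal crosslinker Macf1 (0.984) and the ephrin ligand Efna5 (0.977). Macf1 rose by 0.23 ± 0.07 (SE), Efna5 by 0.79 ± 0.12 and Ypel4 by 1.87 ± 0.33. Sgca was matched by Cnst (0.986), Nt5c3 (0.985) and the mTORC1 inhibitor Tsc1 (0.983), which fell. Dtna was matched by the kinase Rps6ka5 (0.971), the homeobox gene Irx2 (0.970) and Znrd2 (0.965), which also fell. For Dag1 the closest were the nuclear envelope protein Syne1 (0.967), Gnptab (0.957) and the adenylyl cyclase Adcy5 (0.952). For Utrn they were Brms1 (0.984), Tprgl (0.967) and Fam241a (0.943). Sgcb stood nearest to Mical3 (0.961), Lgr4 (0.958) and the calcium channel subunit Cacna2d1 (0.952), and Sgcd to Gga2 (0.967), Zdhhc5 (0.966) and the DNA methyltransferase Dnmt3a (0.961). Sspn had the least close neighbours, Uhrf1bp1 (0.945), Creld1 (0.927) and Pcdhga1 (0.922).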

How the data were processed

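Per the labels' protocols, directional libraries were built from 200 ng of left ventricular RNA after ribosomal RNA depletion. The authors deposited estimated counts per gene as whole numbers, not scaled for library size. The submitters' processing notes name bcl2fastq 2.19.1.403 and kallisto 0.46.0, a pseudoaligner that estimates transcript abundance. For the genome build, annotation and strand setting, nothing is given in the sources used here. GENCODE M21 (GRCm38) holds 54487 of the 55385 identifiers in the same version. Dmd matches without its version, so its transcripts may differ from those counted. Antisense genes that share exon bases with a member, for Dtna and Sspn, held 19 and 53 counts in all.

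The main test was run with edgeR 4.0.16 (R 4.3.3): filterByExpr (minimum count 10, minimum total 15), TMM scaling, and the robust quasi-likelihood F test with Benjamini-Hochberg adjustment over 15314 genes, threshold 0.05. The biological coefficient of variation was 11.4%, and the median SE of a log2 fold change 0.111. CPM per kb divides by the longest coding transcript. The Utrn to Dmd ratio had 0.5 added to each count. Likeness used log2(CPM + 0.5) and genes with a mean log2 CPM of at least 1. Alternatives used DESeq2 1.42.0 and limma 3.58.1. Within groups, no pair of libraries agreed to within counting noise (chi-square over its degrees of freedom, 7.76 to 23.6). The testing script was first checked on simulated data. The labels do not say that samples are separate animals, so p-values measure the spread between samples, which may be technical.

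Members and gene lists were chosen with earlier results of these data known. The text names every member, tested partners, up to 5 genes with the smallest p of each other list, a fixed set (Lama2, Vcl, Itga7, Itgb1, Dysf and Cav3), Stk4 and the 3 genes most like each member. Some genes that this rule names are not reported here. Sgcz, Sntg1, Nos1 and Dytn are named as untested. Of the members 7 have a window in the RefSeq promoter table.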

Additional observations from a re-analysis of the deposited data

Results flagged for a closer look

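In 7 of 130 groups of 4 libraries examined, over the named genes and the Utrn to Dmd ratio, the highest or lowest library lay far from the other 3, where chance gives about 1 in 20. Among the members this held for Dmd in Mst1-TG 2, at 182 CPM, with the other Mst1-TG libraries at 141 to 148 CPM. Mst1-TG 2 was also apart for 3 genes named for their likeness to a member: Ypel4 (5.27 CPM, others 2.84 to 3.08), Syne1 (199 CPM, others 154 to 160) and Nt5c3 (40.9 CPM, others 30.7 to 32.2). Those 3 genes were chosen for following a member over these same libraries, so they are no separate observation of Mst1-TG 2. In WT, Lama2 was high in WT 2 (226 CPM, others 213 to 215), Pomgnt2 was high in WT 4 (13.7 CPM, others 10.7 to 10.9) and Dolk was low in WT 1 (23.3 CPM, others 26.4 to 27.0).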

How the results depend on the processing

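The scaling was the choice that most changed the calls. With library totals only, 6 members were called higher and 0 lower (0 lower at an unadjusted p below 0.05 in edgeR, while DESeq2 with its own size factors called 1 higher and 2 lower), and 7409 genes were called higher and 1592 lower. It moved the median of all genes to 0.29 (0.01 with TMM), and with it the values of Dtna (0.050), Kcnj12 (0.24) and Grb2 (0.12) past 0. Against a minimum 1.5-fold change 894 genes were higher and 848 lower, with 0 members higher and 0 lower in edgeR (1 at an unadjusted p below 0.05). Leaving out each library left 1 member higher and 1 to 2 lower, with 2799 to 3136 genes higher and 2888 to 3208 lower. Across these, Kcnj12 ran from -0.14 to 0.044 (positive without Mst1-TG 3), Dtnb from -0.024 to 0.21 and Tprgl from -0.011 to 0.069 (both negative without WT 2), and Vcl from -0.024 to 0.10 (negative without Mst1-TG 1 or WT 4). The cause was not tested. The Utrn to Dmd log2 difference ran from -0.82 to -0.57 without each library (exact permutation p 0.0286 to 0.0571). Same-numbered libraries did not deviate together (r from -0.192 to 0.0528). The labels do not say whether equal numbers are paired, and these correlations cannot settle it. With the replicate number as a block, 3064 genes were higher and 3123 lower, 1 member was higher and 2 lower, Grb2 lost its call (edgeR adjusted p 0.0546), and the ratio gave -0.68 with p = 0.125 in an exact test, the smallest p that 4 pairs allow. DESeq2, limma-voom, DESeq2 size factors, no count filter, and TMM without the mitochondrial and 20 most abundant genes kept the call and direction of all 8 members.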

Other observations

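Over 13641 tested genes with a coding transcript, the share called higher or lower varied with the length of the longest coding transcript, in bins set after the data were seen. Under 2 kb (3307 genes) 17.6% were higher and 28.0% lower in Mst1-TG, with a median log2 fold change of -0.05. At 2 to 5 kb (7330 genes) the shares were 23.2% and 20.3%, at 5 to 10 kb (2660 genes) 26.8% and 18.4%, and at 10 kb or more (344 genes) 28.5% and 14.8%. Dmd, with 14.9 kb, and Utrn, with 12.4 kb, are in the last bin, and Sgca, with 1.72 kb, is in the first. Dtna (6.29 kb), which passed as lower, and Dag1 (5.66 kb) are in the bin of 5 to 10 kb. Sgcb (3.79 kb), Sgcd (2.45 kb) and Sspn (4.51 kb) are in that of 2 to 5 kb. A part of transcript length in the values of the members was not tested.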
